A study of Arabidopsis thaliana with 6 samples.

Results

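MicroRNA393 (miR393) and the auxin receptor genes it targets were examined in a table of small RNA (sRNA) clusters, which are genome intervals with counted sRNA reads. The clusters taken were those sharing at least 1 base with the TAIR10 span of *MIR393A* (AT2G39885), *MIR393B* (AT3G55734), *TIR1* (AT3G62980), *AFB2* (AT3G26810) or *AFB3* (AT1G12820). This gave 6 of the 17131 clusters of the series. Each of the 5 loci had at least 1 cluster, *AFB2* had a pair, and all 6 clusters passed the filter on low counts. The libraries came from rosette leaves of bolting *Arabidopsis thaliana* Columbia-0 plants, grown at 22 °C and a 12 h day. The memory group held 2 first-generation *msh1* memory plants, which are transgene-free progeny of an *MSH1*-RNAi line that had kept an altered growth habit. The wild type group held 4 control plants that went through the same transformation procedure without carrying the transgene. Memory plants of that generation came from 1 parent, so family and memory cannot be told apart. Library totals ran from 7966799 to 18134284 counts, and memory replicate 2 was the shallowest. *MSH1* itself had no cluster within 1 kb in the table, and sRNA clusters give no check of the leaf label by marker transcripts.

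miR393 is a conserved plant microRNA (miRNA). It guides cleavage of the mRNAs of TIR1 and its relatives, the F-box proteins that bind auxin together with Aux/IAA repressors and send those repressors to degradation. Cleaved receptor mRNA can be copied into double-stranded RNA and diced into secondary siRNA, which is known to occur at this gene family in Arabidopsis leaves. The counts over a receptor gene therefore stand for all sRNA counted in that stretch, and the counts at a miRNA gene, called miR393 here, need not all be mature miRNA, since read length and strand were not part of the tables.

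The mature miRNAs and the sites they match are shown because they define which reads can be told apart and where secondary siRNA could begin. They were read by coordinates from the RefSeq TAIR10.1 genome and annotation. The 5p strand, the one that matches the receptors, is the same 22-nt sequence from both genes, at chr2:16652111-16652132 and chr3:20691657-20691678 on the plus strand. The 3p strands, at chr2:16652205-16652225 and chr3:20691778-20691798, differ at 1 base, which lies within the seed. Capitals mark the seed, bases 2 to 8.
miR393a-5p: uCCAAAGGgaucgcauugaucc
miR393b-5p: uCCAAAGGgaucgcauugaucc
miR393a-3p: aUCAUGCUaucucuuuggauu
miR393b-3p: aUCAUGCGaucucuuuggauu

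The best match to miR393-5p was then searched in each receptor mRNA, and capitals in the sites mark bases that pair with the miRNA by the standard base pairs. Every site lay in coding sequence and paired with the whole seed. The *TIR1* site is at chr3:23273727-23273748 (minus strand, exon 3 of 3), the *AFB2* site at chr3:9870237-9870258 (plus strand, exon 3 of 3) and the *AFB3* site at chr1:4369085-4369106 (minus strand, exon 4 of 4). The site in *AFB1*, a close relative annotated as *GRH1*, is at chr4:1405341-1405362 (minus strand, exon 3 of 3).
TIR1 site: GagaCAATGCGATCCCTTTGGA
AFB2 site: GaAaCAATGCGATCCCTTTGGA
AFB3 site: GaAaCAATGCGATCCCTTTGGA
AFB1 site: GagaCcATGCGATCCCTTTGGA

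*AFB2* and *AFB3* carried the same 22 bases. Written with the pairing base first, the position in miR393 counted from its 5′ end, and then the base of the site, they departed from full pairing at G21A and T19A. *TIR1* added A20G, a G:U wobble, and *AFB1* added A17C to those of *TIR1*. Of 31340 genes with an mRNA model, 2 had a site with at most 2 mismatches, *AFB2* and *AFB3*, and 3 had one with at most 3, which adds *TIR1*. A limit of 4 mismatches held 8 genes, or 0.0255% of those searched. The other auxin-binding F-box genes *AFB4* and *AFB5* had 7 and 8 mismatches at best, and the jasmonate receptor gene *COI1* had 8. A match in these letters is a description and not a measured cleavage.

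All 3 receptor sites lay inside a cluster. Cluster_10589 (chr3:23272299-23274337) covered the last 1273 bases of *TIR1*, of which 825 were coding, and ran 766 bases past its end, where 694 of its bases belong to the protein-coding gene AT3G62970 on the other strand. *AFB2* held Cluster_8289 (chr3:9867802-9868839) over its 5′ part, with 452 coding bases and no miR393 site, and Cluster_8290 (chr3:9869039-9870936), with 1276 coding bases and the site. Cluster_431 (chr1:4368329-4371294) spanned 2535 of the 2539 bases of *AFB3*. The site fell at 74.6%, 80.5% and 85.0% of the mRNA length in *TIR1*, *AFB2* and *AFB3*. On both sides of the expected cut there was mRNA inside the cluster, 567 bases before and 672 after it in *TIR1*, 1060 and 534 in *AFB2*, and 1895 and 335 in *AFB3*. Cluster_431 also contained the antisense non-coding gene AT1G04977, whose 638 bases lie within *AFB3* and cover the site, as well as 494 bases of AT1G12810 and 165 bases of the non-coding gene AT1G04973. Without strand, reads of these genes and of *AFB3* cannot be told apart.

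**Figure D1:**
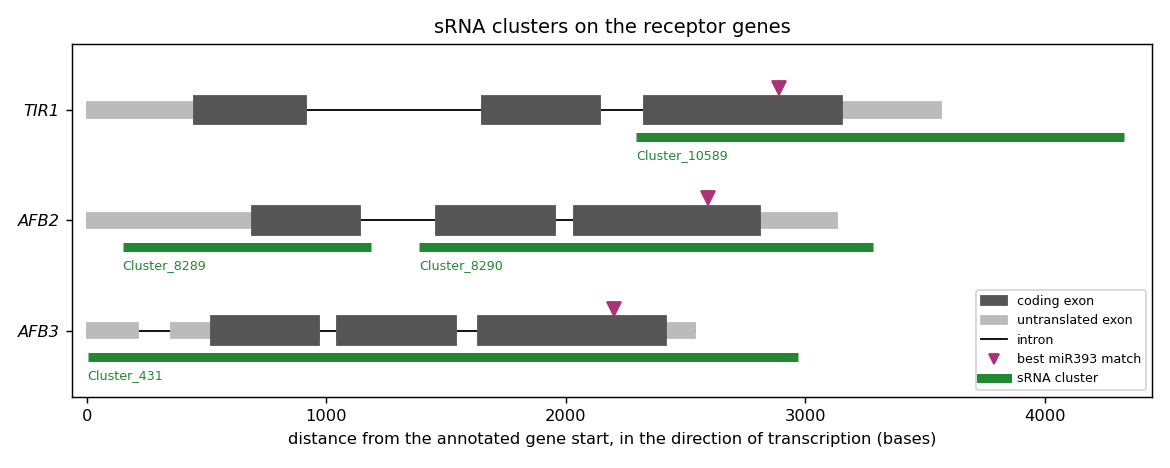
sRNA clusters on the 3 receptor genes, drawn to scale in the direction of transcription, with distance from the annotated gene start in bases on the x axis. Bars show coding exons, untranslated exons and clusters, and triangles the best miR393 match, which lies in the last exon and inside a cluster in each gene.

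The miRNA genes came first. *MIR393A* (chr2:16652101-16652233) lay whole in Cluster_6961 (chr2:16652014-16652492) and *MIR393B* (chr3:20691647-20691806) whole in Cluster_10339 (chr3:20691257-20691852). Levels are given as CPM, counts per 1000000 counts of a library whose size was scaled by TMM, a correction for composition. *MIR393A* stood at 94.6, 153, 78.4 and 125 CPM in wild type replicates 1 to 4 (1407, 2128, 902 and 1425 counts), and at 73.2 and 68.8 CPM in memory replicates 1 and 2 (939 and 422 counts). Both memory plants were below the lowest wild type plant, though the gap to wild type replicate 3 was small beside the spread of the wild type. *MIR393B* stood at 8.81, 17.4, 7.30 and 11.5 CPM in wild type and at 12.8 and 13.7 CPM in memory, from 84 to 242 counts a library. Here the memory plants lay within the wild type range, and wild type replicate 2 was the highest at both miRNA genes.

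Summed over both genes, miR393 came to 124 ± 37.5 CPM (SD, n = 4) in wild type and 84.2 ± 2.42 CPM (SD, n = 2) in memory, a difference of -39.9 CPM (exact permutation test, two-sided p = 0.267). With 4 plants against 2 the smallest p such a test can give is 0.133. The summed levels of the groups overlapped, with memory replicate 1 (85.9 CPM) just above wild type replicate 3 (85.7 CPM). Without wild type replicate 2 the difference was -24.4 CPM. Among 256 clusters at annotated miRNA genes, *MIR393A* ranked 61st and *MIR393B* 144th by mean CPM, around a median of 18.7 CPM. Per kb of cluster the *MIR393A* level was 206 CPM (range over libraries 144 to 320) and the *MIR393B* level 20.0 CPM (12.2 to 29.2).

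Among the receptors, *AFB3*, best known in Arabidopsis from the nitrate response of roots, gave the steadiest wild type level. It stood at 74.8, 71.1, 77.6 and 76.6 CPM in wild type (1112, 988, 893 and 871 counts), while the memory plants had 42.3 and 56.1 CPM (543 and 344 counts). Both memory plants were below all wild type plants. The coefficient of variation of the wild type was 3.79%, beside a counting error of 3.22%, and 225 of 5930 clusters of at least 10 CPM varied less.

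*AFB2*, the receptor most like *AFB3*, gave nearly all of its sRNA from the cluster with the site. Cluster_8290 held 98.1% to 99.2% of the *AFB2* counts of a library, 4343 counts over all libraries against 52 in Cluster_8289. Cluster_8290 stood at 70.2, 54.3, 74.2 and 68.0 CPM in wild type and at 39.3 and 67.3 CPM in memory. Memory replicate 1 was the lowest of all libraries, and memory replicate 2 lay within the wild type range. Cluster_8289, over the 5′ part, ran from 0.467 to 1.30 CPM, or 6 to 12 counts, where 3 counts correspond to 0.202 to 0.489 CPM, depending on the library.

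*TIR1*, the founding auxin receptor, was the lowest of the 3. Cluster_10589 stood at 7.20, 7.63, 8.60 and 6.51 CPM in wild type, from 107, 106, 99 and 74 counts, and the memory plants had 4.75 and 11.3 CPM, from 61 and 69 counts. The memory plants were the lowest and the highest of the 6, so the groups overlapped. Memory replicate 2, the higher of the pair at all receptor clusters, also had the smallest library and the lowest TMM factor (0.770), and the part of these in the result was not tested.

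Per kb of cluster, the order was Cluster_8290 at *AFB2* with 32.8 CPM (range 20.7 to 39.1), Cluster_431 at *AFB3* with 22.4 CPM (14.3 to 26.2) and Cluster_10589 at *TIR1* with 3.75 CPM (2.33 to 5.52). *AFB2* exceeded *AFB3* in 6 of 6 libraries, by 1.19 to 1.88 times, and *AFB3* exceeded *TIR1* in 6 of 6, by 3.43 to 8.09 times. *AFB3* and *MIR393B* traded places, with *AFB3* higher in 3 of 6 libraries. Cluster_8290 lay above 85.3% of all clusters of the series per kb, Cluster_431 above 80.1% and Cluster_10589 above 49.7%. For scale, the *TAS* loci, whose miRNA-cut transcripts are the classic source of trans-acting siRNA, ran from 12271 CPM per kb at *TAS1A* over 3632 at *TAS1C*, 2899 at *TAS2* and 368 at *TAS1B* to 261 at *TAS3*, whose siRNA targets auxin response factors, and 1.78 at *TAS3B*. *AGO1*, a miRNA target that encodes the main miRNA effector protein, had 3.77 CPM per kb.

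**Figure D2:**
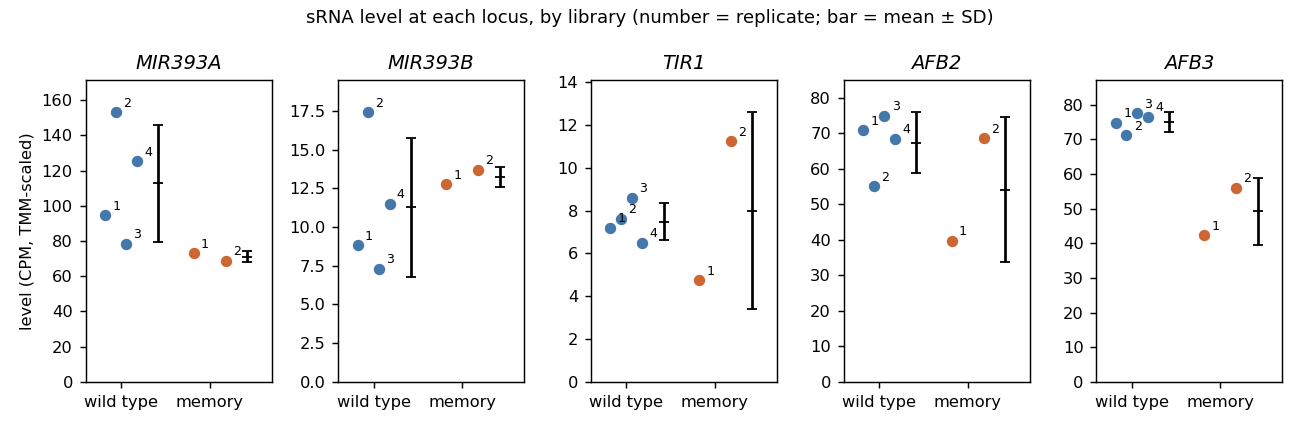
sRNA level at each locus in CPM (y axis, from 0, a scale of its own in each panel) for the 4 wild type and 2 memory libraries, with replicate numbers beside the points and the mean ± SD as bars. *MIR393A* and *AFB3* are the loci whose groups do not overlap, with memory at 68.8 to 73.2 and 42.3 to 56.1 CPM.

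Whether memory plants differed from wild type at these loci was tested with edgeR over all 15659 clusters that passed the filter. By the quasi-likelihood test of edgeR, 0 of 6 passed an adjusted p of 0.05, where 0.00639% of all clusters did. By DESeq2, which gave Cluster_8289 no adjusted p, it was 0 of 5, beside 1.88% of the 13054 clusters that had one, and by the likelihood ratio test of edgeR 0 of 6 (0.875%). At an unadjusted p below 0.05 it was 1 of 6, Cluster_431 at *AFB3*, which was lower in memory, where 10.5% of all clusters passed and 5.56% passed as lower in memory. By DESeq2 it was 2 of 6, *AFB3* and *MIR393A*, where 10.5% of 15483 clusters passed. The groups did not overlap in 2 of 6, both lower in memory, where 22.1% of all clusters did not overlap with 12.0% lower and 10.1% higher in memory. The median log2 fold change of the 6 was -0.12, beside -0.03 over all clusters. Lower in memory were 3 of 6, beside 8191 of all 15659 clusters.

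*MIR393A* differed by a log2 fold change of -0.67 ± 0.29 (SE), or 0.629 times the wild type level, with an adjusted p of 0.489 by the edgeR quasi-likelihood test. *AFB3* differed by -0.61 ± 0.15, or 0.655 times, with an adjusted p of 0.387 and an unadjusted p of 0.00662, and its adjusted p ran from 0.0660 (DESeq2) to 0.987 (with a replicate block) over the alternatives. For *AFB3* it was -0.41 when memory replicate 1 was left out and -0.83 when memory replicate 2 was. Cluster_8290 at *AFB2* differed by -0.32 ± 0.25 (edgeR adjusted p = 0.647), which became 0.03 when memory replicate 1 was left out and -0.77 when memory replicate 2 was.

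The remaining clusters had estimates with wide intervals. *MIR393B* differed by 0.23 ± 0.37 on the log2 scale (edgeR adjusted p = 0.845), and by -0.03 with library size alone as the scaling. Leaving out 1 library moved it between 0.07 (without wild type replicate 3) and 0.52 (without wild type replicate 2). *TIR1* differed by 0.09 ± 0.37 (edgeR adjusted p = 0.952), with an interval of 2 SE on either side from -0.65 to 0.82, and by -0.23 with library size alone. Without memory replicate 2 the *TIR1* value was -0.66, and without memory replicate 1 it was 0.60. Cluster_8289 at *AFB2* differed by 0.20 ± 0.54 (edgeR adjusted p = 0.915) and by -0.08 with library size alone. Scaling by library size alone moved the median over all clusters from -0.03 to -0.23, so these last values are to be read against that shift. Intervals of this width hold changes in both directions.

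**Figure D3:**
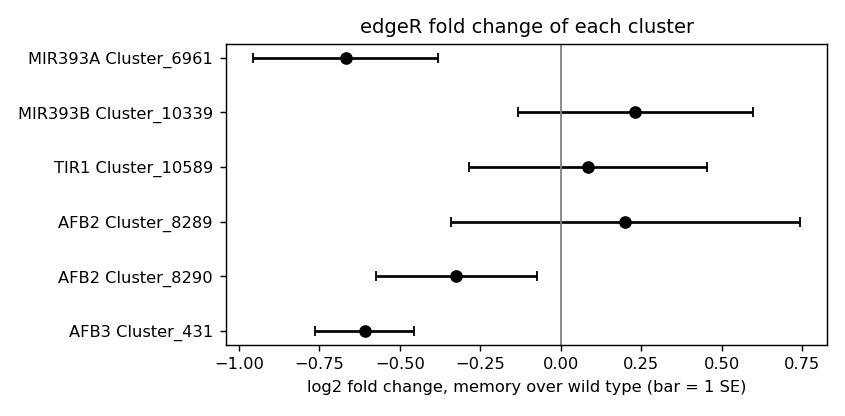
edgeR log2 fold change of each of the 6 clusters, memory over wild type (x axis), with bars of 1 SE. *MIR393A* (-0.67) and *AFB3* (-0.61) lie to the left of 0, while *MIR393B*, *TIR1* and the 5′ cluster of *AFB2* have bars that cross 0.

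The next comparison set the receptor sRNA against miR393. Summed over *TIR1*, *AFB2* and *AFB3*, receptor sRNA stood at 153, 134, 161 and 152 CPM in wild type (150 ± 11.5, SD, n = 4) and at 86.8 and 136 CPM in memory (111 ± 34.8, SD, n = 2). The groups overlapped, since memory replicate 2 lay just above wild type replicate 2. The difference was -38.5 CPM (exact permutation test, two-sided p = 0.267), and it came to -13.9 CPM with memory replicate 1 left out and to -63.1 CPM with memory replicate 2 left out. With library size alone as the scaling it was -60.4 CPM (exact permutation test, two-sided p = 0.133, the smallest possible).

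Receptor counts per miR393 count, a ratio that needs no scaling between libraries, were 1.48, 0.785, 1.88 and 1.11 in wild type and 1.01 and 1.65 in memory. The memory ratios fell among those of the wild type. On the log2 scale the ratio was 0.32 ± 0.54 (SD, n = 4) in wild type and 0.37 ± 0.50 (SD, n = 2) in memory (exact permutation test, two-sided p = 0.933). The sign of the difference, 0.05, turned when wild type replicate 2 (-0.17), wild type replicate 4 (-0.01) or memory replicate 2 (-0.30) was left out.

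Across the 6 libraries, the log2 receptor level (with 1 CPM added) showed no relation with the log2 miR393 level that passed a test. Pearson's r was 0.225 (exact permutation p = 0.903) and Spearman's rho was -0.20 (exact permutation p = 0.714), so that the measures differed in sign. For the single receptors r was -0.157 at *TIR1*, -0.018 at *AFB2* and 0.473 at *AFB3*, and rho was -0.486, -0.429 and 0.143. Over these 4 relations the Benjamini-Hochberg adjusted permutation p was 0.903 for each r and 0.803 for each rho. Without wild type replicates 2 and 4, the libraries farthest from the median miR393 level, r for the summed receptors was 0.314 over 4 libraries. With library size alone as the scaling it was 0.630 over the 6 (exact permutation p = 0.186). The points share their library totals and hold both groups. Within the wild type and with TMM scaling, the order of the receptor levels was the reverse of that of miR393. Replicates 3, 1, 4 and 2 had 161, 153, 152 and 134 CPM of receptor sRNA at 85.7, 103, 137 and 171 CPM of miR393. With library size alone as the scaling, replicate 1 was the lowest wild type library in both, so the full reversal depends on the scaling. Both memory plants lay near the low end of miR393, at 85.9 and 82.5 CPM, with receptor levels of 86.8 and 136 CPM. No coefficient is given within a group, since each has fewer than 6 libraries.

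**Figure D4:**
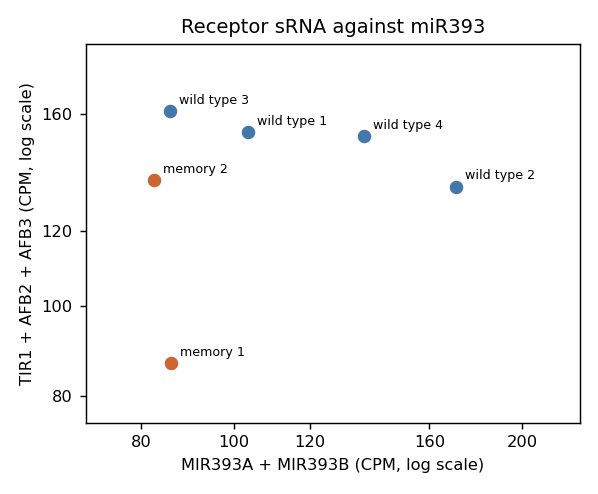
Summed receptor sRNA (y axis, CPM, log scale) against summed miR393 (x axis, CPM, log scale) in the 6 labelled libraries. Wild type replicate 2, at 171 CPM of miR393, has the lowest receptor level of the wild type (134 CPM), and memory replicate 1 the lowest of all (86.8 CPM).

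The split of the receptor counts over the 3 genes was compared next. Most of the counts lay at *AFB2* and *AFB3*, and few at *TIR1*. *AFB3* took 48.9%, 53.1%, 48.1% and 50.5% of all receptor counts in the wild type plants, and 48.7% and 41.2% in the memory plants. *AFB2* took 41.2% to 46.5% in wild type and 45.8% and 50.5% in memory. *TIR1* took 4.29% to 5.70% in wild type and 5.48% and 8.27% (exact 95% binomial interval 6.49% to 10.4%) in memory. Memory replicate 1 sat within the wild type range at all 3 genes, and memory replicate 2 outside it at all 3. The 3 shares of a library add up to the whole, so they are not independent results. The difference between the groups passed the test at none of the 3 (exact permutation test, two-sided p = 0.267 for *TIR1*, 0.4 for *AFB2* and 0.267 for *AFB3*, all 0.4 after Benjamini-Hochberg adjustment over the 3).

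The share of miR393 counts that lay at *MIR393A*, a measure chosen after its values were seen, was 91.5%, 89.8%, 91.5% and 91.6% in wild type and 85.1% and 83.4% in memory. The exact 95% binomial intervals of the memory plants, 82.9% to 87.2% and 79.9% to 86.5%, did not reach the lowest bound of the wild type, 88.5%. The difference was -6.82 percentage points, from 91.1 ± 0.864% (SD, n = 4) to 84.3 ± 1.22% (SD, n = 2), with a two-sided exact permutation p of 0.133, the smallest the design allows. Reads of the shared 5p sequence match both genes, so their split rests on how the aligner placed them, and the part of this in the shares was not tested. Intervals of this kind cover counting error only.

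**Figure D5:**
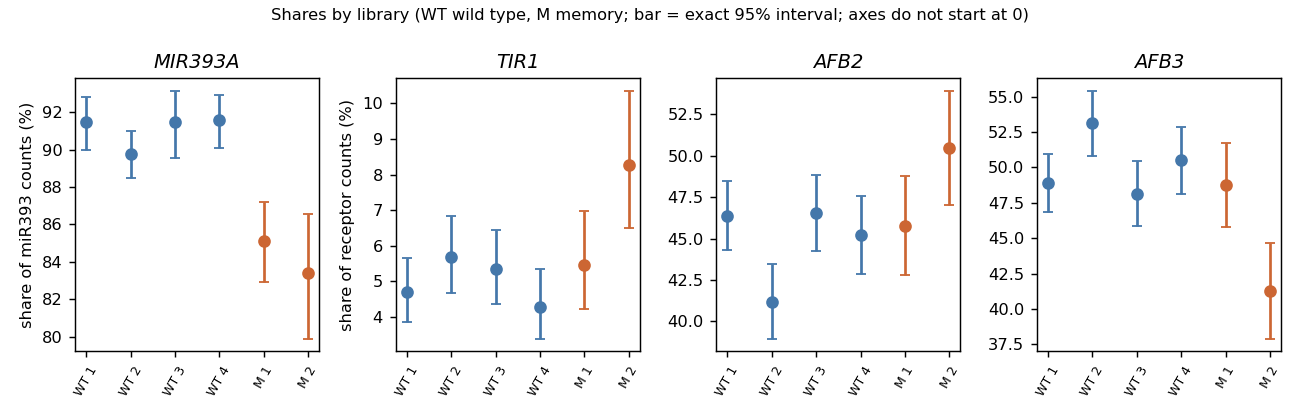
Share of miR393 counts at *MIR393A* and share of receptor counts at *TIR1*, *AFB2* and *AFB3* (y axes in percent, not starting at 0) in each library, with exact 95% binomial intervals as bars. The memory libraries (85.1% and 83.4%) lie below all wild type libraries in the *MIR393A* panel, and the groups overlap in the receptor panels.

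Other genes of auxin perception were taken as a list of 65, of which 31 had a cluster and 41 clusters were tested. The list holds related F-box genes, subunits and regulators of the SCF ubiquitin ligase, the Aux/IAA repressors and the auxin response factors (ARF), the transcription factors the repressors hold back. By the edgeR quasi-likelihood test 0 of 41 passed in either direction, beside 0.00639% of all clusters, and by DESeq2 0 of the 33 with an adjusted p, beside 1.88%. At an unadjusted p below 0.05 it was 1 of 41 by edgeR, beside 10.5% of all clusters. By DESeq2 it was 1 of 41, beside 10.5% of 15483 clusters. Whether the list differs from all clusters in this was not tested. The median log2 fold change was 0.06 over the 41, 0.14 over 3 clusters of related F-box genes, -0.17 over 5 of the SCF genes, 0.21 over 8 of the Aux/IAA genes and -0.01 over 25 of the ARF genes. The cluster with the low unadjusted p by edgeR, Cluster_1510 at *ARF12*, had 8, 9, 18 and 11 counts in the wild type plants, and the memory plants had 1 and 0 (edgeR adjusted p = 0.387), and it is named although it lay outside the naming rule.

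The clusters of this list with the highest mean CPM were Cluster_2338 at *ARF23* (84.9 ± 11.4 CPM in wild type, 123 ± 47.8 in memory), Cluster_1526 at *ARF21* (86.4 ± 6.51 and 105 ± 5.85), Cluster_1663 at *ARF14* (49.1 ± 7.36 and 74.7 ± 43.1), Cluster_16887 at *ARF4* (35.3 ± 4.27 and 36.7 ± 3.43) and Cluster_10868 at *AFB1* (23.2 ± 4.64 and 17.9 ± 4.10; SD, n = 4 and 2 throughout). Their log2 fold changes ran from -0.37 at *AFB1* to 0.60 at *ARF14*. The *ARF23* cluster is 12915 bases wide and shares 273 of them with the gene. The *AFB1* cluster touches 58 bases at the 5′ end of that gene, so no cluster lay over its miR393 site.

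By likeness of log2(CPM + 1) over the 6 libraries, the 3 miRNA clusters of at least 10 CPM closest to summed miR393 were Cluster_9732 at *MIR8165* (r = 0.818), Cluster_3018 at *MIR5635b* (r = 0.818) and Cluster_12361 at *MIR780* (r = 0.817), out of 148. Closest to the summed receptors were Cluster_13793 at AT5G13200 (r = 0.986), Cluster_622 at AT1G18193 (r = 0.978) and Cluster_5470 at AT2G14220 to AT2G14240 (r = 0.974), out of 3220 clusters at exons of protein-coding genes. These are the extremes of many comparisons over 6 points that share library totals, and they are given as a description.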

How the data were processed

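Each library had 1 deposited table of unscaled read counts per sRNA cluster. Per the study's methods, the authors aligned 50-base single-end reads to TAIR10 with ShortStack, and the submitters' processing notes name SAMtools. Unless told otherwise ShortStack places a read with several matches by the uniquely placed reads nearby. The study names a length class, 24 nt, for its screen of differential clusters. How clusters were defined and whether the deposited counts were limited to any length is not given in the sources used here. Groups and replicate numbers came from the labels, which call the plants biological replicates.

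Genes, miRNAs and sequences came from the RefSeq TAIR10.1 annotation, and all clusters ended within its chromosomes (the last of chromosome 4 at its final base, 18585056). Sites were scored by mismatches of 22 bases against all mRNA models of a locus, without gaps, and the model with the fewest mismatches was kept. Counts were tested with the edgeR 4.0.16 quasi-likelihood test (R 4.3.3) with TMM, filterByExpr (15659 of 17131 clusters kept), group alone as the design and Benjamini-Hochberg adjustment, threshold 0.05. The SE is the absolute log2 fold change over the square root of F. Sums, ratios and shares were compared by exact permutation over the 15 splits, two-sided p being 2 times the smaller one-sided p. Binomial intervals are Clopper-Pearson (scipy 1.17.1). The fitting code was tested on simulated data.

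Members and lists were chosen with earlier results of these data known. Clusters named were all at the 5 loci, of the other auxin genes those called and the 5 with the highest mean CPM, and the 3 most alike by Pearson's r among clusters of at least 10 CPM. Alternatives were RLE, library size alone, 10 largest clusters left out of library sizes, no filter, at least 10 counts in every library, DESeq2 1.42.0, likelihood ratio test, a replicate block and each library left out. Replicate numbers name different plants. The deviations of libraries with the same number had a correlation of -0.07 over 15659 clusters, so they were not used as pairs.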

Additional observations from a re-analysis of the deposited data

Results flagged for a closer look

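The share of miR393 counts at *MIR393A* in wild type replicate 2, 89.8%, stood apart from the other wild type libraries, whose mean was 91.5%. The distance to the next wild type library made up 0.944 of the range of the group. It was the only flag among 14 values examined in the 4 wild type libraries, where chance flags about 1 in 20 groups, or 0.7 here.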

How the results depend on the processing

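Over all clusters, the single call of the edgeR quasi-likelihood test became 8 with library size alone, 2 with at least 10 counts in every library, 245 with DESeq2, 137 with the likelihood ratio test, 0 in the 4 libraries numbered 1 and 2, and 0 in those with a replicate block. Leaving out a library gave 0 to 9 calls (9 without wild type replicate 1, 5 without memory replicate 1). At the 5 loci and at the other auxin genes the count was 0 in all 15 alternatives. *MIR393A* and *AFB3* stayed lower in memory in all 15.

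Signs turned at Cluster_10339 of *MIR393B* with library size alone (-0.027), at Cluster_10589 of *TIR1* with library size alone (-0.23) and the replicate block (-0.021), and at Cluster_8289 of *AFB2* under the same settings (-0.077 and -0.018). With libraries left out, log2 fold changes ran from -0.66 to 0.60 at *TIR1*, from -0.64 to 0.84 at Cluster_8289 and from -0.77 to 0.025 at Cluster_8290, and the log2 ratio of receptors to miR393 differed by -0.30 to 0.40. The correlation was -0.455 with *MIR393B* alone and 0.630 with library size alone. The summed differences were -57.1 CPM for miR393 and -60.4 CPM for the receptors with library size alone. The cause of these shifts was not tested. With the 10 largest clusters left out of library sizes, the summed differences were -91.1 and -97.8 CPM (exact permutation test, two-sided p = 0.4 and 0.133). For these sums that setting used no TMM factors, and its library sizes are smaller than the full totals. Every CPM is therefore larger than with library size alone. Taking only clusters with most of their bases in the locus left none for miR393, so it gave no value there. With 2 memory plants, and 6 to 12 counts a library at Cluster_8289, small changes could not be detected.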

Other observations

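Of the genes outside the receptor family whose best miR393 match had 4 mismatches, AT3G23690 had the most sRNA. It encodes a basic helix-loop-helix protein, annotated with the synonym CIL2, and its site at chr3:8530587-8530608 (minus strand, exon 1 of 7, coding) pairs with the whole seed and is shown for that reason, with capitals for paired bases.
AT3G23690 site: GGgTCAgaGCGATCCCTTTGGc

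Cluster_8081 (chr3:8528465-8531042) covered that site. It stood at 100, 109, 143 and 114 CPM in wild type (1488, 1510, 1646 and 1293 counts) and at 50.3 and 103 CPM in memory (645 and 630 counts). Memory replicate 1 was the lowest library and memory replicate 2 lay within the wild type range, the pattern also seen at Cluster_8290 of *AFB2*. The same pattern held at Cluster_13793 of AT5G13200, a gene without a site of at most 4 mismatches. That cluster was named above for its likeness to the summed receptors, so its pattern follows from the choice. At Cluster_10868 of *AFB1* memory replicate 2 was the lowest library, and memory replicate 1 lay within the wild type range. At Cluster_8081 of AT3G23690 the log2 fold change was -0.61 ± 0.31 (SE; edgeR adjusted p = 0.536), -0.17 without memory replicate 1 and -1.21 without memory replicate 2. Per kb the level of Cluster_8081 was 40.0 CPM, beside 32.8 CPM at Cluster_8290. AT4G18596, a further gene with 4 mismatches, had no cluster. The other clusters at genes with 4 mismatches outside the family, Cluster_6713 at *CPL3* and Cluster_16212 at *BRG1*, had 0.522 and 0.541 CPM per kb. From 2 to 14 counts a library, their log2 fold changes were -1.01 ± 0.53 and 0.64 ± 0.68 (SE; edgeR adjusted p = 0.539 and 0.748). Both memory plants were below all wild type plants at *CPL3*, and the groups overlapped at *BRG1*. Cluster_8081 was chosen after its values were seen.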
